A study of Mus musculus with 35 samples.

Results

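MicroRNAs (miRNAs) were compared between 2 white fat depots of the mouse, aWAT and iWAT, across all 485 miRNA rows measured in 3 small RNA libraries of each depot. These are 6 of the 35 samples of the study, taken by their depot labels. The aWAT group held aWAT 1, 2 and 3 and the iWAT group iWAT 1, 2 and 3, all whole fat pads of untreated C57BL/6 mice at 13 weeks of age. The labels do not spell out either depot name, so both are kept as written. The protocol describes male mice kept at room temperature, and, with no sex given, mice kept at 4 °C for 1 week whose inguinal pads were taken, and it ties neither to a depot label, so no housing temperature can be assigned to aWAT or iWAT. No genotype, transgene or other agent is given for either group. No label says that the libraries came from separate animals, so the p-values below measure the spread between these samples, which may be technical. The libraries held 1791767 to 2535190 reads in aWAT and 1887790 to 3776278 reads in iWAT. The other 12 miRNA libraries, 3 each of cWAT, eWAT, mWAT and iBAT, entered the same statistical fit and are used for levels only.

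A miRNA guides Argonaute proteins to messenger RNAs, mainly by pairing of its seed (bases 2 to 8) with the target, and the target is then translated less or degraded. White fat pads hold adipocytes together with progenitors, vessels, leukocytes and nerves, and a pad can be dissected with adjoining tissue. The depots arise at different positions along the body, and their cells keep position-dependent patterns of Hox genes, the homeobox genes that specify position along the head-to-tail axis. Several miRNAs are encoded inside the Hox clusters. Values below are the normalized counts that the authors deposited, reads divided by a size factor per library. A log2 fold change is aWAT minus iWAT on the scale of log2(normalized count + 1), ± its standard error from the fit, with 3 libraries in each depot. A miRNA was called at a Benjamini-Hochberg adjusted p under 0.05 (limma).

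The mature sequences below are those the differences turned on, from RefSeq (GRCm38.p6). The first pair was lower in aWAT, the second pair belongs to the muscle miRNAs that were higher there, and the third pair holds the next largest differences among called miRNAs with a mean of at least 100 in the higher depot. They are followed by a pair from the imprinted Dlk1-Dio3 region that was higher in aWAT, and by miR-191-5p, miR-193b-3p and miR-351-5p, which were lower. Capitals mark the seed.
miR-196a-5p: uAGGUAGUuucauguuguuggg
miR-196b-5p: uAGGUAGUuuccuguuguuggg
miR-206-3p: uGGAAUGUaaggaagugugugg
miR-133b-3p: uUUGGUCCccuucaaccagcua
miR-149-5p: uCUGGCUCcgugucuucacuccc
miR-128-3p: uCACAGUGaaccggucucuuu
miR-136-3p: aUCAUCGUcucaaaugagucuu
miR-434-3p: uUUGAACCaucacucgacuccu
miR-191-5p: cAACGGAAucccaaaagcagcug
miR-193b-3p: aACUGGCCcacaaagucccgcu
miR-351-5p: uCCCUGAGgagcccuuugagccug
The miR-196a-5p and miR-196b-5p sequences share the seed and differ only by A12C, counted from the 5′ end of miR-196a-5p. miR-196a-5p is encoded at chr11:96265187-96265208 and chr15:102973365-102973386 (both on the plus strand), between Hoxb13 and Hoxb9 and between Hoxc10 and Hoxc9. miR-196b-5p is encoded at chr6:52230129-52230150 (minus strand), between Hoxa9 and Hoxa10. miR-206-3p (chr1:20679055-20679076, plus strand) and miR-133b-3p (chr1:20682834-20682855, plus strand) lie next to each other between Pkhd1 and Il17a.

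In the whole comparison, 48 of 436 tested miRNAs were called (11%). Of these, 32 were higher in aWAT (7.34% of the tested) and 16 were lower (3.67%). The median log2 fold change of all tested miRNAs was -0.02. Among the called miRNAs, the largest differences fell on miRNAs of striated muscle, higher in aWAT by up to 7.64 on the log2 scale, and on the miR-196 pair, which fell by 7.29 and 3.92 on the log2 scale. Most other calls were small, and 20 of the 48 differed by 1 log2 unit or more. The 3 aWAT libraries lay wholly above the 3 iWAT libraries for 31 of the 32 higher calls and wholly below for 15 of the 16 lower calls; over all tested miRNAs they lay wholly above for 12.8% and wholly below for 11.7%. The aWAT 1 library was the highest of the 3 aWAT libraries for 23 of the 32 higher calls.

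The calls rest on a spread estimated over all 6 depots. With the aWAT and iWAT libraries fitted alone, 2 miRNAs passed, miR-196a-5p and miR-196b-5p. Leaving out a library gave 27 (without aWAT 2) to 45 calls (without aWAT 1) for the aWAT libraries, and 26 (without iWAT 2), 28 (without iWAT 1) and 44 (without iWAT 3) for the iWAT libraries, and 17 of the 48 calls were made in each of these 6 fits. Quantile normalization, which moved the median of all tested miRNAs to -0.15, split the calls into 18 higher and 19 lower. Scaling to library totals counted without the muscle list moved it to 0.14 and gave 48 higher and 7 lower.

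**Figure D1:**
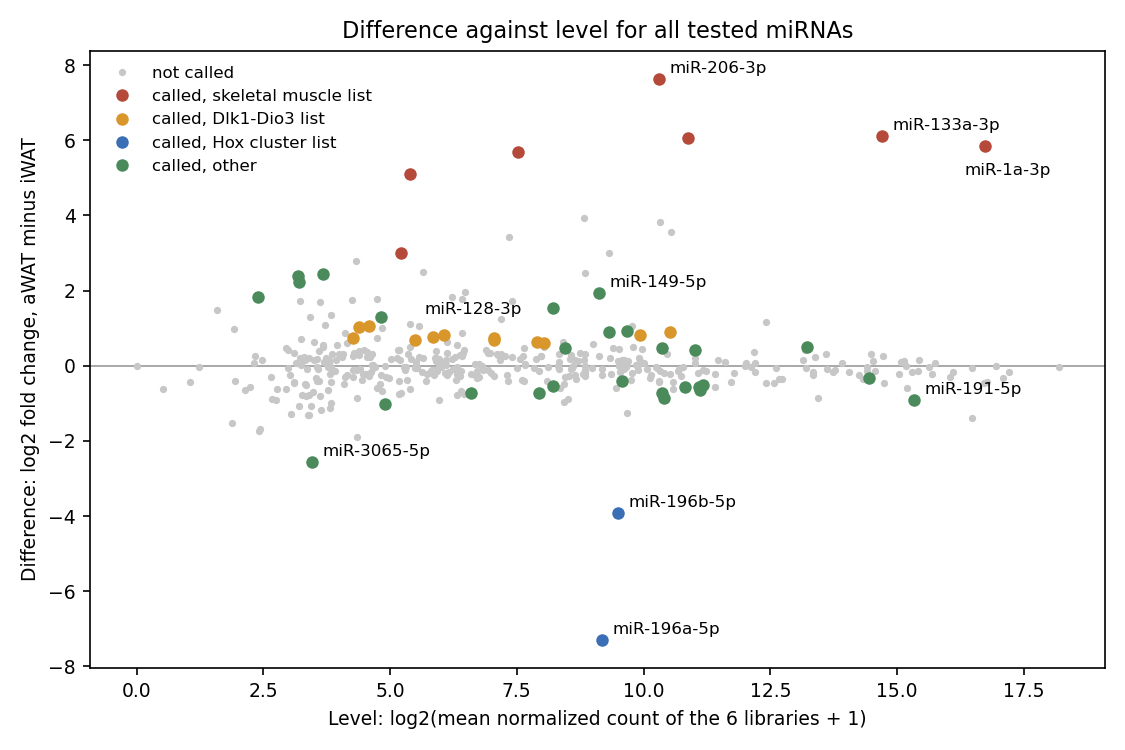
Log2 fold change (aWAT minus iWAT) of each of the 436 tested miRNAs against its level, log2 of the mean normalized count of the 6 libraries plus 1; colours mark called miRNAs by list. The called muscle miRNAs lie at 3.01 to 7.64, the miR-196 pair lies at -7.29 and -3.92, and most other called miRNAs are within 1 log2 unit of 0.

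The miR-196 family gave the clearest difference between the depots. miR-196a-5p, which represses the Hox genes Hoxb8 and Hoxc8 and has been described to favour beige adipocytes, had 4.56, 9.06 and 6.24 normalized counts in aWAT 1, 2 and 3, against 1109, 1127 and 1242 in iWAT 1, 2 and 3. Mean levels were 6.62 ± 2.28 in aWAT and 1159.5 ± 72.3 in iWAT (SD, n = 3 each), a 175-fold lower mean in aWAT. The aWAT values rest on 4, 7 and 5 reads and the iWAT values on 1573, 873 and 1162 reads. All aWAT libraries were far below all iWAT libraries, with little spread in either depot (log2 fold change -7.29 ± 0.20, adjusted p = 2.26e-13).

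miR-196b-5p, the family member from the Hoxa cluster, had 173, 82.9 and 46.2 normalized counts in aWAT 1, 2 and 3, against 1182, 1511 and 1342 in iWAT 1, 2 and 3. The mean was 13.4-fold lower in aWAT, and the groups did not overlap (log2 fold change -3.92 ± 0.41, adjusted p = 1.81e-05). Within aWAT, library 1 was the highest and library 3 the lowest. The passenger arm miR-196a-2-3p, which only the Hoxc copy of miR-196a makes, was at 0 reads in all 3 aWAT libraries and at 15, 5 and 10 reads in iWAT 1, 2 and 3. The passenger arm of the Hoxb copy, miR-196a-1-3p, was at 0 in all 6 libraries. Neither arm passed the filter on low values, and a listed 0 may stand for a single read. The 2 main arms were called under each of the 21 alternative settings, with log2 fold changes of -7.51 to -6.66 for miR-196a-5p and -4.41 to -3.47 for miR-196b-5p.

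Across the 6 depots, miR-196a-5p was at 0 in all 3 iBAT libraries, lowest among the white depots in aWAT, at 21.3 to 32.9 in eWAT, 584 to 668 in mWAT and 1029 to 1239.9 in cWAT. The cWAT and iWAT ranges overlapped, and all other neighbours in this order were apart. miR-196b-5p was at 1.76 to 7.22 in iBAT, 63.9 to 113 in eWAT, 939 to 1217 in cWAT and 1983 to 2274 in mWAT. For this miRNA aWAT overlapped eWAT, cWAT overlapped iWAT, and mWAT was above all others. The 2 miRNAs thus had different top depots.

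**Figure D2:**
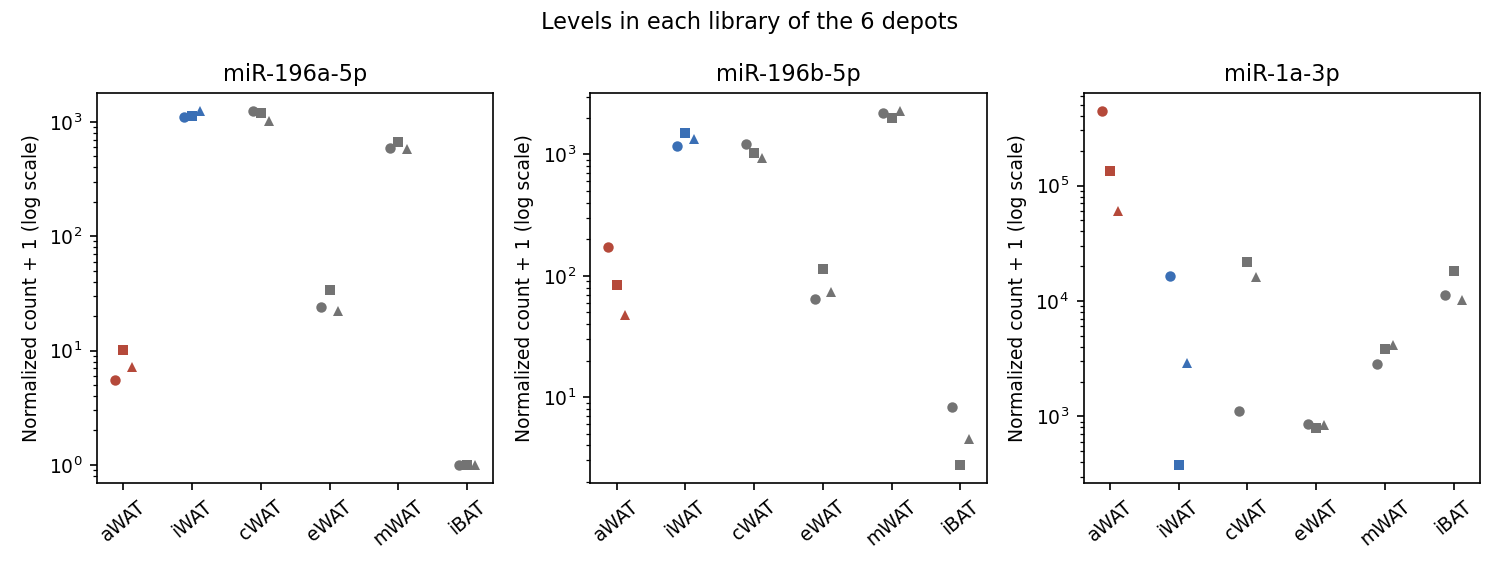
Normalized count + 1 (log scale) of miR-196a-5p, miR-196b-5p and miR-1a-3p in each library of the 6 depots, with circles, squares and triangles for replicates 1, 2 and 3 and aWAT in red and iWAT in blue. aWAT sits 2 orders of magnitude below iWAT for miR-196a-5p, overlaps eWAT for miR-196b-5p, and is above every other library for miR-1a-3p.

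The Hox cluster list held 10 measured miRNAs, of which 7 were tested. None was called higher (also in edgeR and DESeq2, and 0 at an unadjusted p under 0.05). The miR-196 pair, 2 of the 7, was called lower, beside 3.67% of all 436 tested miRNAs. All 7 log2 fold changes were negative, with a median of -0.45. miR-10a-5p, encoded within the span of Hoxb3, had 98858, 102554 and 72618 normalized counts in aWAT, against 138703, 121734 and 111834 in iWAT (log2 fold change -0.45 ± 0.17, adjusted p = 0.12). miR-10b-5p, encoded in the Hoxd cluster and differing from miR-10a-5p by U12A, counted from the 5′ end of miR-10a-5p, had 146293, 134880.0 and 91840.0 normalized counts in aWAT, against 180345, 147490.0 and 131389 in iWAT (log2 fold change -0.32 ± 0.20, adjusted p = 0.338). miR-615-3p, from the Hoxc cluster, had 784, 439 and 459 normalized counts in aWAT, against 1112, 633 and 760.2 in iWAT (log2 fold change -0.59 ± 0.22, adjusted p = 0.12). These 3 did not pass the threshold, though miR-615-3p was called lower without aWAT 1 (-0.85, adjusted p = 0.019). Reads of the near-identical miR-10 and miR-196 pairs could be split between members in the authors' counting, which is not described in the sources used here.

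Most striated muscle miRNAs were higher in aWAT than in iWAT. Of the 11 measured members of the muscle list 9 were tested, 7 were called higher and none lower, with a median log2 fold change of 5.69. Among all 436 tested miRNAs, 7.34% were called higher. All 9 values of the muscle list were positive. edgeR called 8 of these 9 higher, DESeq2 9 and limma voom 4. The list took 19.9%, 8.0% and 3.35% of all normalized counts in aWAT 1, 2 and 3, against 0.878%, 0.136% and 0.261% in iWAT 1, 2 and 3. The libraries of each depot therefore differed widely among themselves, and the lowest aWAT library was still above the highest iWAT library. In bulk tissue, fewer cells of a type and less RNA per cell cannot be told apart.

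miR-1a-3p, the most abundant miRNA of striated muscle, had 440919, 134457 and 59728 normalized counts in aWAT 1, 2 and 3, against 16537, 378 and 2907 in iWAT 1, 2 and 3, a 32.0-fold higher mean in aWAT (log2 fold change 5.86 ± 1.17, adjusted p = 0.00662). miR-133a-3p, made from shared transcripts with miR-1a, had 109314, 37738 and 10415 normalized counts in aWAT 1, 2 and 3, against 2466, 74.9 and 681 in iWAT 1, 2 and 3 (log2 fold change 6.12 ± 1.22, adjusted p = 0.00662). miR-133b-3p, the copy beside miR-206, had 7333, 2907 and 856 normalized counts in aWAT 1, 2 and 3, against 194, 3.87 and 65.2 in iWAT 1, 2 and 3 (log2 fold change 6.05 ± 1.24, adjusted p = 0.00701). All 3 followed the same order of libraries, with aWAT 1 highest and iWAT 2 lowest. miR-133 is also known to repress Prdm16, a transcriptional regulator of brown fat.

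miR-206-3p, a marker of skeletal as opposed to heart muscle, had 4181, 1949 and 1352 normalized counts in aWAT 1, 2 and 3, against 51.5, 0 and 25.7 in iWAT 1, 2 and 3, with no overlap (log2 fold change 7.64 ± 1.50, adjusted p = 0.00662). Its mean was 97.0-fold higher in aWAT. The arms miR-133a-5p (5.69) and miR-1a-1-5p (5.10) were also called. miR-486b-3p, expressed in muscle and in red blood cells, had 134, 38.8 and 25 normalized counts in aWAT, against 12, 3.87 and 3.21 in iWAT (log2 fold change 3.01 ± 0.69, adjusted p = 0.0118). The abundant miR-486a-5p had 12022, 8090.4 and 3401 normalized counts in aWAT, against 4062, 2841 and 2574 in iWAT and was not called (log2 fold change 1.16 ± 0.42, adjusted p = 0.104). Without aWAT 3 it was called higher (1.67, adjusted p = 0.0111). Other red blood cell miRNAs were not called, with miR-144-3p at -0.36 and miR-144-5p at -0.22.

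miR-499-5p and miR-208b-3p are encoded in slow and cardiac myosin genes. miR-499-5p had 63.8, 12.9 and 13.7 normalized counts in aWAT, against 6.34, 6.46 and 5.35 in iWAT and was not called (log2 fold change 1.75 ± 0.59, adjusted p = 0.075). miR-208b-3p was at 9.11 in aWAT 1 and at 0 in the other 5 libraries, and was not tested. The sum of miR-1a-3p, miR-133a-3p, miR-133b-3p and miR-206-3p took 3.19% to 19.4% of normalized counts in aWAT and 0.0188% to 1.06% in the 15 libraries outside aWAT. All 7 muscle calls held without aWAT 1, where miR-1a-3p was at 5.09, adjusted p = 0.022. Leaving out iWAT 2 ended the call of miR-486b-3p (adjusted p = 0.0526).

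**Figure D3:**
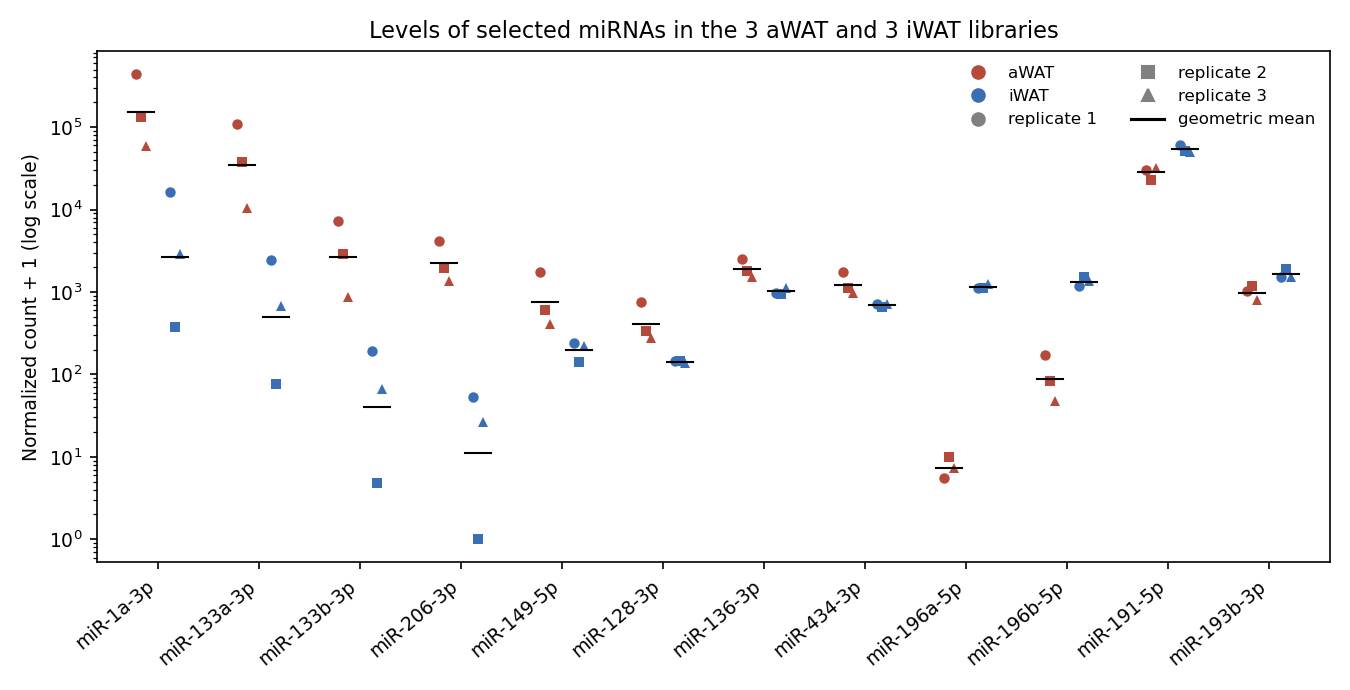
Normalized count + 1 (log scale) of 12 miRNAs in the 3 aWAT (red) and 3 iWAT libraries (blue), with bars at geometric means. The muscle miRNAs miR-1a-3p, miR-133a-3p, miR-133b-3p and miR-206-3p spread widely within each depot without overlap between them, and miR-196a-5p and miR-196b-5p are lower in aWAT.

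**Figure D4:**
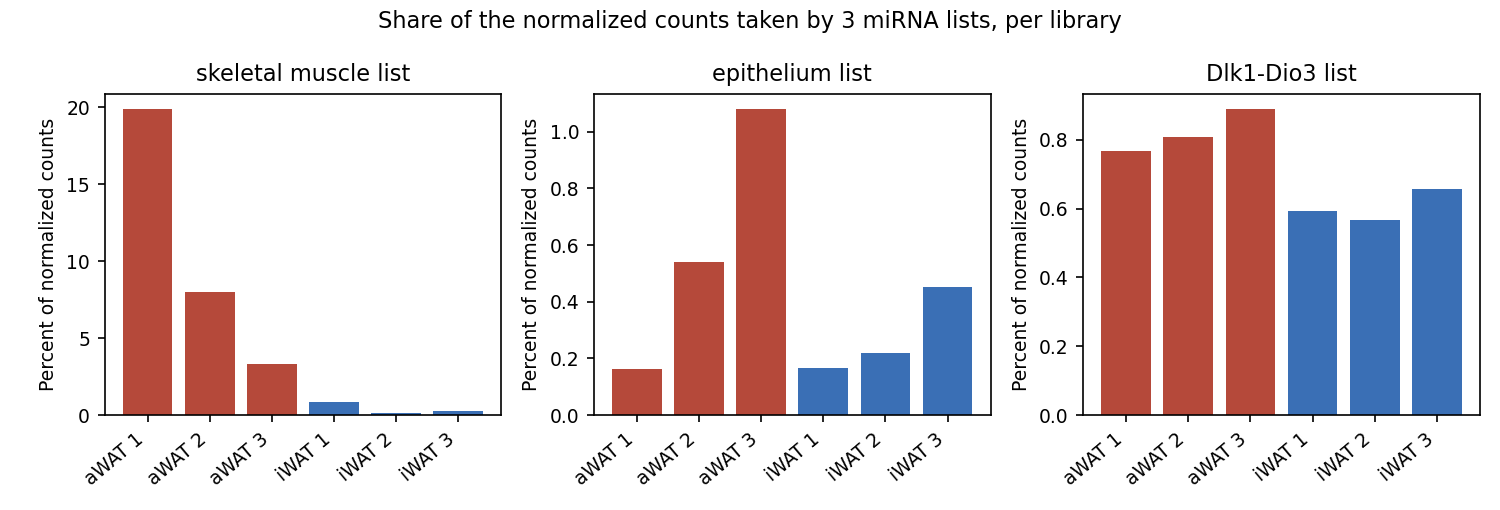
Share of normalized counts, in percent, taken by the muscle, epithelium and Dlk1-Dio3 lists in each aWAT (red) and iWAT library (blue), each panel with its own scale. The muscle share is 19.9%, 8.0% and 3.35% in aWAT 1, 2 and 3, and at most 0.878% in iWAT; the epithelial share is highest in aWAT 3.

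Among called miRNAs with a mean of at least 100 in the higher depot, miR-149-5p and miR-128-3p differed most after the muscle miRNAs and the miR-196 pair. miR-149-5p, encoded within the span of the glypican gene Gpc1, had 1733, 609.9 and 404 normalized counts in aWAT 1, 2 and 3, against 239.7, 142 and 222 in iWAT 1, 2 and 3 (log2 fold change 1.93 ± 0.39, adjusted p = 0.00662). Its levels elsewhere were 202 to 298 in cWAT, 184 to 264 in eWAT, 175 to 239.7 in mWAT and 202 to 278 in iBAT, below all 3 aWAT libraries. miR-128-3p, known for its high level in brain and encoded within the spans of R3hdm1 and Arpp21, had 749, 337 and 276 normalized counts in aWAT 1, 2 and 3, against 143, 145 and 135 in iWAT 1, 2 and 3 (log2 fold change 1.54 ± 0.27, adjusted p = 0.00522). It was at 258 to 334 in iBAT. Both were highest in aWAT 1 and lowest in aWAT 3, the order of the muscle share. Without aWAT 1 the differences were 1.33, adjusted p = 0.00946, for miR-149-5p and 1.11, adjusted p = 0.00372, for miR-128-3p.

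The miR-378 family is tied to mitochondrial metabolism through its first member, encoded in Ppargc1b. miR-378c had 1792, 879 and 624 normalized counts in aWAT, against 495, 598 and 495 in iWAT (log2 fold change 0.91 ± 0.26, adjusted p = 0.0354). miR-378d had 1368, 698 and 487 normalized counts in aWAT, against 434, 449 and 368 in iWAT (log2 fold change 0.90 ± 0.25, adjusted p = 0.0354). The more abundant miR-378a-3p had 35598, 22159 and 19162 normalized counts in aWAT, against 20084, 23077 and 17233 in iWAT, with overlapping groups, and was not called (log2 fold change 0.31 ± 0.19, adjusted p = 0.33). All 3 were highest in aWAT 1. Without aWAT 1 miR-378c was at 0.49, adjusted p = 0.0646, and miR-378d at 0.49, adjusted p = 0.0733. The calls of both also ended without any 1 of iWAT 1, iWAT 2, iWAT 3 and aWAT 2 (highest adjusted p = 0.119 and 0.0969). In iBAT they were far higher, at 6985 to 8963 and 4058 to 5184.

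Of the 25 higher calls outside the muscle list, 11 had the library order of the muscle share (aWAT 1 above 2 above 3), as did 98 of the 436 tested miRNAs (22.5%). With the mean log2 level of the 4 muscle miRNAs as a covariate, all 41 calls outside the muscle list kept their sign, and only the miR-196 pair passed the threshold (adjusted p = 1.96e-09 and 0.0118). miR-149-5p was then at 0.77, adjusted p = 0.683, and miR-128-3p at 0.91, adjusted p = 0.419. Standard errors in that fit were larger, by a median factor of 1.69. The muscle level itself did not overlap between the depots, so depot and muscle level cannot be told apart in these libraries.

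In the list of the Dlk1-Dio3 region 12 of 52 tested miRNAs were called modestly higher in aWAT, beside 7.34% of all 436 tested miRNAs. This imprinted region of chromosome 12 carries a large miRNA cluster, expressed from the maternal allele. Of 57 measured members of the list 52 were tested, 12 were called higher and none lower. By position between Dlk1 and Dio3, 55 rows were measured and 50 tested, with 11 called higher and 0 lower. No member was lower at an unadjusted p under 0.05, and edgeR and DESeq2 called 10 and 13 higher and none lower. In all, 38 of the 52 log2 fold changes were positive and 14 negative, with a median of 0.30. The list took 0.767%, 0.808% and 0.890% of normalized counts in aWAT 1, 2 and 3, and 0.593%, 0.567% and 0.658% in iWAT 1, 2 and 3. The groups did not overlap in this share, and its denominator holds the muscle miRNAs. As summed normalized counts the list was at 22142, 18738 and 20164 in aWAT 1, 2 and 3, and at 15788, 13819 and 15800.3 in iWAT 1, 2 and 3, also without overlap and highest in aWAT 1.

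miR-136-3p had 2538, 1775 and 1513 normalized counts in aWAT 1, 2 and 3, against 983, 952 and 1114 in iWAT 1, 2 and 3 (log2 fold change 0.90 ± 0.15, adjusted p = 0.00473). Its other arm, miR-136-5p, had 237, 115 and 146 normalized counts in aWAT, against 87.4, 99.4 and 107 in iWAT (log2 fold change 0.70 ± 0.20, adjusted p = 0.0419). miR-434-3p had 1724, 1125 and 958 normalized counts in aWAT, against 705, 661 and 714 in iWAT (log2 fold change 0.83 ± 0.16, adjusted p = 0.00662). These 3 were highest in aWAT 1, with all aWAT libraries above all iWAT libraries.

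miR-381-3p had 299, 282 and 283 normalized counts in aWAT, against 176, 169 and 216 in iWAT, with a narrow spread in each depot (log2 fold change 0.63 ± 0.13, adjusted p = 0.00662). miR-411-5p had 332, 298 and 319 normalized counts in aWAT, against 212, 179.5 and 239 in iWAT (log2 fold change 0.59 ± 0.13, adjusted p = 0.0104). miR-329-3p had 201, 152 and 143 normalized counts in aWAT, against 113, 72.3 and 113 in iWAT (log2 fold change 0.74 ± 0.18, adjusted p = 0.0156). The other 6 calls were at lower levels, with log2 fold changes of 0.69 (miR-495-3p), 0.75 (miR-154-5p), 0.76 (miR-299b-3p), 0.83 (miR-376b-5p), 1.03 (miR-382-3p) and 1.07 (miR-376c-3p). The most abundant member, miR-127-3p, had 11216, 10056 and 10754 normalized counts in aWAT, against 8555, 7162 and 8345 in iWAT and was not called (log2 fold change 0.42 ± 0.14, adjusted p = 0.0812).

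In other depots miR-136-3p was at 1064 to 1197 in cWAT, 1195 to 1467 in eWAT, 2214 to 2449 in mWAT and 1316 to 1599.8 in iBAT, so that mWAT and iBAT overlapped aWAT, and cWAT and eWAT lay below all 3 aWAT libraries. miR-136-3p, miR-434-3p and miR-381-3p were called without each library in turn. Leaving out 1 library gave 5 higher calls in the list (without iWAT 1 or iWAT 2), 6 (without aWAT 1 or aWAT 3) or 7 (without aWAT 2 or iWAT 3). Without aWAT 1 the median was 0.35 and miR-487b-3p was called lower. No member was called with the muscle level as covariate, where the median was 0.38, and 2 were called higher after quantile normalization, where the median of the list was 0.11 and that of all tested miRNAs -0.15.

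**Figure D5:**
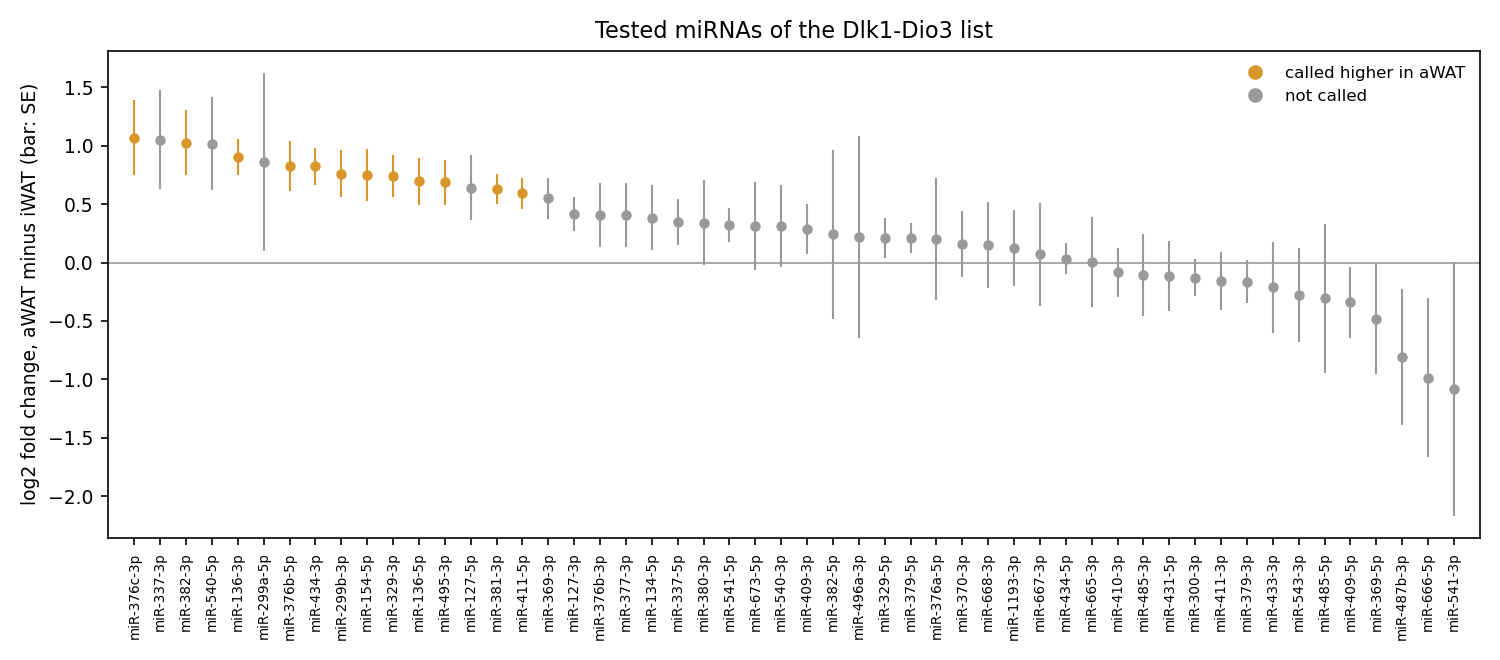
Log2 fold change (aWAT minus iWAT) with its standard error for the 52 tested miRNAs of the Dlk1-Dio3 list, in falling order, with the 12 called ones in orange. In all, 38 lie above 0 and 14 below, and the called ones range from 0.59 to 1.07.

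In the X-linked miR-322 to miR-450 cluster 3 of 9 tested miRNAs were called lower in aWAT, beside 3.67% of all 436 tested miRNAs. miR-322 is the mouse counterpart of human miR-424, and the cluster is known for restraining the cell cycle and for roles in muscle differentiation. Of 10 measured members 9 were tested, 3 were called lower and none higher (none at an unadjusted p under 0.05 either, nor in edgeR or DESeq2). edgeR called 2 members lower and DESeq2 3. Of the 9 log2 fold changes 8 were negative (median -0.50). The cluster took 0.279%, 0.271% and 0.265% of normalized counts in aWAT 1, 2 and 3, and 0.386%, 0.370% and 0.340% in iWAT 1, 2 and 3, without overlap. The denominator of these shares holds the muscle miRNAs. As summed normalized counts the cluster was at 8045, 6292 and 6010 in aWAT 1, 2 and 3. In iWAT 1, 2 and 3 it was at 10274, 9013 and 8171, also without overlap. With library totals counted without the muscle list, 1 member was called lower.

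miR-503-3p had 239, 152 and 158 normalized counts in aWAT, against 407, 276 and 237 in iWAT, with aWAT 1 just above iWAT 3 (log2 fold change -0.74 ± 0.20, adjusted p = 0.0335). miR-351-5p had 2025, 1347 and 1815 normalized counts in aWAT, against 3445, 2381 and 2287 in iWAT (log2 fold change -0.64 ± 0.16, adjusted p = 0.0165). miR-322-3p had 2296, 1813 and 1636 normalized counts in aWAT, against 3085, 2709 and 2322 in iWAT (log2 fold change -0.50 ± 0.15, adjusted p = 0.0424). miR-351-5p shares its seed with miR-125a-5p and miR-125b-5p, which were not called (-0.30 and -0.23). miR-322-5p, the arm usually taken as the main product, was not called (-0.26), and miR-542-3p was the member with a positive value (0.47, not called). Calls ended for miR-503-3p without any 1 of iWAT 1, iWAT 2, aWAT 2 and aWAT 3 (highest adjusted p = 0.146), miR-351-5p without iWAT 1 or aWAT 2 (highest adjusted p = 0.0714) and miR-322-3p without any 1 of iWAT 1, iWAT 2, aWAT 2 and aWAT 3 (highest adjusted p = 0.202). No member was called without iWAT 1, without aWAT 2, with the muscle level as covariate or with aWAT and iWAT fitted alone, and without aWAT 1 miR-450a-5p was also called lower (-0.50, adjusted p = 0.00512).

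Among the remaining lower calls, miR-191-5p was by far the most abundant. miR-191-5p, encoded within the span of Dalrd3, had 30379.7, 22971 and 32279 normalized counts in aWAT 1, 2 and 3, against 60656, 50949 and 49742 in iWAT 1, 2 and 3, with no overlap (log2 fold change -0.92 ± 0.20, adjusted p = 0.00904). Elsewhere it was at 31975 to 50844 in cWAT, 40978 to 48940.5 in eWAT, 24236 to 40125 in mWAT and 46658 to 60547 in iBAT, and only cWAT and mWAT overlapped aWAT. The other arm, miR-191-3p, had a log2 fold change of -0.02 and was not called.

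miR-193b-3p, enriched in brown fat, had 1015, 1174 and 798 normalized counts in aWAT, against 1509, 1889 and 1537 in iWAT (log2 fold change -0.73 ± 0.17, adjusted p = 0.0104). Its level was 1538 to 2118 in cWAT, 669.5 to 778 in eWAT, 598 to 664 in mWAT and 7708 to 10794 in iBAT. Its relative miR-193a-3p, with the same seed, was not called (-0.19). miR-342-3p, encoded in Evl and described in leukocytes and in adipocyte differentiation, had 878, 1032 and 994 normalized counts in aWAT, against 1513, 1936 and 1808 in iWAT (log2 fold change -0.85 ± 0.24, adjusted p = 0.0354). miR-139-5p, encoded within the span of the phosphodiesterase gene Pde2a, had 1601, 1436 and 1352 normalized counts in aWAT, against 2177, 2208 and 2116 in iWAT, with little spread in either depot (log2 fold change -0.57 ± 0.11, adjusted p = 0.00662).

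Both arms of miR-708 were lower in aWAT. miR-708-5p had 1828, 1843 and 1618 normalized counts in aWAT, against 2369, 2903 and 2562 in iWAT (log2 fold change -0.56 ± 0.14, adjusted p = 0.0165), and miR-708-3p was at -0.41 ± 0.12 (adjusted p = 0.0354). miR-874-3p had 60.4, 79 and 76.1 normalized counts in aWAT, against 100.1, 119 and 140.1 in iWAT (log2 fold change -0.72 ± 0.20, adjusted p = 0.0331). miR-148a-5p, the lesser arm of a miRNA that promotes adipocyte differentiation, had 254, 251 and 226 normalized counts in aWAT, against 373, 322 and 359 in iWAT (log2 fold change -0.52 ± 0.16, adjusted p = 0.0421), and its main arm miR-148a-3p was at -0.04 and not called.

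miR-27a-3p, which restrains adipocyte differentiation and targets Pparg, had 21713, 20666 and 17202 normalized counts in aWAT, against 23507, 25061 and 26396 in iWAT (log2 fold change -0.34 ± 0.10, adjusted p = 0.0354). Its seed, UCACAGU, overlaps that of miR-128-3p, which was called in the other direction. Its same-seed relative miR-27b-3p was not called (0.06). Of these lower calls, miR-191-5p and miR-139-5p were made without each library in turn. Leaving out 1 library ended the calls of miR-193b-3p without iWAT 2 (adjusted p = 0.0556), miR-342-3p without any 1 of iWAT 1, iWAT 2, iWAT 3, aWAT 1, aWAT 2 and aWAT 3 (highest adjusted p = 0.115), miR-708-5p without iWAT 2 or aWAT 3 (highest adjusted p = 0.0745), miR-874-3p without any 1 of iWAT 2, iWAT 3 and aWAT 1 (highest adjusted p = 0.0969), miR-148a-5p without any 1 of iWAT 1, iWAT 2, iWAT 3, aWAT 1, aWAT 2 and aWAT 3 (highest adjusted p = 0.149), miR-708-3p without any 1 of iWAT 1, iWAT 2, aWAT 2 and aWAT 3 (highest adjusted p = 0.159) and miR-27a-3p without any 1 of iWAT 2, iWAT 3, aWAT 2 and aWAT 3 (highest adjusted p = 0.109).

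miRNAs described in brown or beige fat did not move together. Of 32 tested members 2 were called higher (miR-378c and miR-378d) and 3 lower (miR-196a-5p, miR-193b-3p and miR-30c-1-3p). Among all 436 tested miRNAs, 7.34% were called higher and 3.67% lower. The list median of -0.03 was close to that of all tested miRNAs. miR-30c-1-3p, a lesser arm, had 29.6, 12.9 and 16.2 normalized counts in aWAT, against 35.2, 41.3 and 38.5 in iWAT (log2 fold change -1.01 ± 0.28, adjusted p = 0.0335), and its call ended without any 1 of iWAT 1, iWAT 2, iWAT 3, aWAT 2 and aWAT 3 (highest adjusted p = 0.119). The main arms of the miR-30 family, abundant in fat, were not called, with miR-30a-5p at 111678, 87506 and 71413 normalized counts in aWAT, against 97274, 95475 and 86345 in iWAT (log2 fold change -0.07 ± 0.14, adjusted p = 0.791) and miR-30d-5p at -0.14. The list took 5.73% to 6.64% of normalized counts in aWAT and 5.87% to 6.86% in iWAT, against 22.9% to 25.4% in iBAT. The denominator of these shares holds the muscle miRNAs.

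Of 25 tested miRNAs described as opposed to browning 4 were called higher and 1 lower, with a median of 0.05. The shares over all 436 tested miRNAs were 7.34% higher and 3.67% lower. The higher ones were miR-133a-3p, miR-133a-5p, miR-133b-3p and miR-199b-3p, of which 3 also belong to the muscle list, and the lower one was miR-27a-3p. miR-199b-3p, of mesenchymal cells, had 8991, 11299 and 13591 normalized counts in aWAT, against 7070.3, 7419 and 9286 in iWAT, with 1 iWAT library inside the aWAT range (log2 fold change 0.50 ± 0.14, adjusted p = 0.0354), and the call ended without any 1 of iWAT 1, iWAT 2, aWAT 2 and aWAT 3 (highest adjusted p = 0.149). In the list on adipocyte differentiation, 1 of 22 was called lower (miR-148a-5p), beside 3.67% of all tested miRNAs. None was called higher, and the list median was -0.15. The uncalled members of this list with the smallest p were miR-103-3p (-0.45 ± 0.14), which is encoded in pantothenate kinase genes and acts on insulin signalling, miR-22-5p (0.64 ± 0.22) and miR-335-5p (-0.57 ± 0.24), encoded in the imprinted gene Mest. Without aWAT 3, miR-103-3p was called lower (-0.57, adjusted p = 0.0213) and miR-22-5p higher (0.92, adjusted p = 0.00579), and without aWAT 1 miR-335-5p was called lower (-0.87, adjusted p = 0.019).

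The lists below for other cell types that a pad can hold had 1 call each. Over all tested miRNAs, 48 of 436 (11%) were called. Of 19 tested leukocyte miRNAs 1 was called lower (miR-342-3p) and none higher (median -0.12). miR-142a-5p, specific to blood cells, had 6971, 9485 and 6633 normalized counts in aWAT, against 12564, 20584 and 10272 in iWAT and was not called (log2 fold change -0.87 ± 0.35, adjusted p = 0.139), and miR-146a-5p (-0.35 ± 0.15) and miR-223-3p of myeloid cells (0.44 ± 0.16) were not called either. Without iWAT 3, miR-223-3p was called higher (0.59, adjusted p = 0.0347). Of 9 endothelial miRNAs 1 was called lower (miR-139-5p; median -0.08), and miR-126a-3p, the defining one, had 144209, 127898 and 108924 normalized counts in aWAT, against 140872, 123612 and 118833 in iWAT (log2 fold change -0.01 ± 0.13, adjusted p = 0.965). Of 23 mesenchymal and smooth muscle miRNAs 1 was called higher (miR-199b-3p; median -0.16). Of 14 liver and nerve miRNAs 1 was called higher (miR-128-3p; median -0.04).

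Epithelial miRNAs had a wide spread within each depot. None of 22 tested members was called by limma, edgeR or DESeq2, with 6 at an unadjusted p under 0.05 in limma, while 18 of the 22 log2 fold changes were positive and the median was 1.02. miR-205-5p, of stratified epithelium, had 68.4, 796 and 1436 normalized counts in aWAT 1, 2 and 3, against 7.75, 5.17 and 417 in iWAT 1, 2 and 3 (log2 fold change 3.93 ± 1.38, adjusted p = 0.0907). miR-200a-3p, a defining miRNA of epithelial cells, had 330.4, 2149.5 and 4873 normalized counts in aWAT 1, 2 and 3, against 25.4, 51.7 and 1521 in iWAT 1, 2 and 3 (log2 fold change 3.56 ± 1.31, adjusted p = 0.105). miR-200b-3p had 219.9, 1652 and 4663 normalized counts in aWAT, against 22.6, 22 and 1096 in iWAT. In each case iWAT 3 lay between aWAT 1 and aWAT 2, so the depots overlapped, and aWAT 1 lay above iWAT 1 and iWAT 2. Without iWAT 3, 6 members were called higher, with miR-205-5p at 5.87 (adjusted p = 0.00919). Without aWAT 1, 3 were called higher, with miR-205-5p at 5.24 (adjusted p = 0.0294), and without aWAT 3 miR-203-5p was called lower. The list took 0.164%, 0.539% and 1.08% of normalized counts in aWAT 1, 2 and 3, and 0.168%, 0.218% and 0.453% in iWAT 1, 2 and 3. Within aWAT this order was the reverse of that of the muscle share, and the muscle miRNAs are in the denominator. As summed normalized counts the epithelial list was at 4727, 12498 and 24488 in aWAT 1, 2 and 3. In iWAT 1, 2 and 3 it was at 4459, 5318 and 10872.5. The part of muscle RNA in the other differences was not tested beyond the covariate fit above, and the part of epithelial RNA was not tested.

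Families that act broadly on growth and metabolism had 0 or 1 call each, beside 48 of 436 (11%) over all tested miRNAs. 1 of 21 tested let-7 and miR-98 rows was called, the passenger arm let-7d-3p, with 2415, 2577 and 2155 normalized counts in aWAT, against 1688, 1809 and 1832 in iWAT (log2 fold change 0.42 ± 0.09, adjusted p = 0.0104), and its call ended without aWAT 2 (adjusted p = 0.0529). let-7i-3p was at 0.78 ± 0.25 and not called, and let-7c-5p at -0.16 ± 0.10. let-7i-3p was called higher without iWAT 2 (1.00, adjusted p = 0.0314) and without aWAT 3 (0.98, adjusted p = 0.023). None of 6 miR-29 rows, which repress collagen genes, was called by limma, edgeR or DESeq2 (0 at an unadjusted p under 0.05), and miR-29a-3p was at 0.10 ± 0.13. None of 18 rows of miR-17-92 and its paralogs, which promote proliferation, was called by limma, edgeR or DESeq2 (4 at an unadjusted p under 0.05 in limma; median -0.16), with miR-92a-3p at -0.36 ± 0.16. miR-92b-3p (1.11 ± 0.38) was called higher without iWAT 3 (1.54, adjusted p = 0.016) and with library totals counted without the muscle list.

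Of the 10 most abundant miRNAs only miR-1a-3p was called. miR-143-3p, of mesenchymal and smooth muscle cells, led in both depots, except that miR-1a-3p exceeded it in aWAT 1, and had 298040.0, 293008 and 292390.0 normalized counts in aWAT, against 340885, 293133 and 274623 in iWAT (log2 fold change -0.03 ± 0.12, adjusted p = 0.896). miR-26a-5p had 164486, 146097 and 119579 normalized counts in aWAT, against 177238, 151680.0 and 154317 in iWAT (log2 fold change -0.18 ± 0.12, adjusted p = 0.357). miR-21a-5p, which rises in growing and injured tissue, had 61197, 74308 and 165451 normalized counts in aWAT, against 93953, 133756 and 145641 in iWAT (log2 fold change -0.43 ± 0.34, adjusted p = 0.471). miR-99a-5p had 41312, 24810.0 and 107900.0 normalized counts in aWAT, against 128199, 122903 and 125712 in iWAT, with aWAT 1 and aWAT 2 far below the other 4 libraries, and was not called (log2 fold change -1.39 ± 0.63, adjusted p = 0.186).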

How the data were processed

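Total RNA of whole fat pads was made into small RNA libraries with a TruSeq kit after TRIzol and RNeasy extraction, per the labels' protocols. No role is stated for the software and builds listed in the submitters' processing notes (DESeq, DESeq2 and kallisto 0.45.0; mm10 and GRCm38), with the miRNA aligner and counter not given in the sources used here. Each deposited value is a signal, a read count divided by the library's size factor by the authors, per the file headers. Because the deposited values were normalized, limma on log2 values was the main test and the count tests were alternatives. Every value was a whole multiple of 1 step per library (100% within 0.02 reads), which gave the reads. In 12 of 18 libraries the smallest value was 2 reads, so a listed 0 may stand for a single read. The totals of reads set the precision, and low counts are the least precise. The authors' own deposited comparisons do not include this pair of depots and were not used, nor were the mRNA and Argonaute samples.

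limma 3.58.1 (R 4.3.3; eBayes with trend) was fitted to log2(normalized count + 1) over all 6 depots (12 residual degrees of freedom). Rows kept by filterByExpr of edgeR 4.0.16 on the reads were tested (436 of 485; 49 were not). The test was checked on simulated data. The threshold was an adjusted p of 0.05 (Benjamini-Hochberg over the tested rows). DESeq2 1.42.0 and edgeR served as alternatives. The main fit did not pair samples by replicate number. The 17 miRNA lists and the choice of depots were made with earlier results of these data known. A list name took both arms, numbered copies and lettered forms where the plain name was absent (miR-486). Lists were described by counts and medians, with no set test. Named are the 12 called miRNAs with the largest change in each direction with a mean of at least 100 in the higher depot, the 10 most abundant, up to 4 per list with the smallest p, and their partner arms, seed relatives and cluster neighbours. Any other miRNA named was chosen after its values were seen. Sequences and positions came from RefSeq tables (GRCm38.p6), in which 426 of 485 rows and 42 of 48 called rows had a match.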

Additional observations from a re-analysis of the deposited data

How the results depend on the processing

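The numbers of called, higher and lower miRNAs (48, 32 and 16) stayed within 1.5 times under other pseudocounts (0.5 and 5), other filters, scaling to library totals, scaling by trimmed mean (TMM), edgeR (43, 28 and 15), DESeq2 (58, 41 and 17) and limma voom. With aWAT and iWAT fitted alone they were 2, 0 and 2, with 81 at an unadjusted p under 0.05. With the muscle covariate, chosen after seeing the data, they were 2, 0 and 2, with 49 at an unadjusted p under 0.05. Quantile normalization gave 18 higher calls, and scaling to library totals without the muscle list, also chosen after seeing the data, gave 7 lower calls. Leaving out 1 library gave 26 to 45 calls, 18 to 32 higher and 7 to 17 lower. Whether replicate numbers pair the samples cannot be told from these values. Same-numbered libraries deviated together with correlations of 0.51, 0.02 and 0.37, and differently numbered ones with -0.51 to 0.23. aWAT 1 and aWAT 3 correlated best with the iWAT library of the same number, and aWAT 2 with iWAT 3. A replicate block gave 49 calls (32 higher and 17 lower) over 6 depots, and 9 calls (6 higher and 3 lower) over the 2 depots. No called miRNA changed sign under any of the 21 alternatives. Causes of these changes were not tested. The smaller fits also have fewer samples or degrees of freedom.

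Some uncalled values near 0 changed sign. Scaling to library totals without the muscle list put let-7c-5p at 0.013, miR-126a-3p at 0.16, miR-143-3p at 0.13, miR-30a-5p at 0.10 and miR-30d-5p at 0.032 on the log2 scale. The muscle covariate put let-7c-5p at 0.041, miR-144-5p at 0.34, miR-21a-5p at 0.58, miR-30e-3p at -0.058 and miR-338-5p at 0.096 on the log2 scale. Quantile normalization put let-7c-5p at 0.015, miR-126a-3p at 0.061, miR-29c-3p at -0.047 and miR-30a-5p at 0.13 on the log2 scale. Leaving out 1 library moved across 0 the values of miR-126a-3p (-0.11 to 0.092), miR-143-3p (-0.10 to 0.054), miR-29a-3p (-0.012 to 0.22), miR-29c-5p (-0.70 to 0.028) and miR-30a-5p (-0.23 to 0.090).

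Depth limits the rows with few reads, where 1 read more or less moves the value.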

Other observations

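Of 126 hairpins with both arms tested, 21 had at least 1 called arm, and in 18 of these both arms had the same sign, as in 80 of all 126. Both arms were called for miR-136 (higher in aWAT) and miR-708 (lower). The arms differed in sign for let-7d-3p (0.42, called) and let-7d-5p (-0.12), for miR-340-5p (0.48, called) and miR-340-3p (-0.30), and for miR-411-5p (0.59, called) and miR-411-3p (-0.16). The arms of miR-191 differed in size of change, with miR-191-5p at -0.92 and miR-191-3p at -0.02.

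Several miRNAs outside the lists were also called, most of them at low levels. miR-3065-5p, encoded within the span of Aatk, had 4.56, 0 and 3.74 normalized counts in aWAT, against 19, 22 and 10.7 in iWAT, and was called without each library in turn (log2 fold change -2.56 ± 0.53, adjusted p = 0.00719). miR-582-3p had 31.9, 54.4 and 32.4 normalized counts in aWAT, against 13.4, 18.1 and 13.9 in iWAT (log2 fold change 1.30 ± 0.30, adjusted p = 0.0115), and its call ended without aWAT 2 (adjusted p = 0.0609). miR-574-3p had 393, 448 and 381 normalized counts in aWAT, against 277, 279 and 324 in iWAT and was called without each library in turn (log2 fold change 0.47 ± 0.10, adjusted p = 0.0104). miR-504-5p (2.44), miR-1983 (2.38), miR-296-5p (2.23) and miR-5100 (1.82) were called higher from few reads, and leaving out 1 library ended each call (highest adjusted p = 0.143, 0.216, 0.19 and 0.146). These miRNAs were chosen after their values were seen.

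By chromosome, 11 of 62 tested miRNAs with a single locus on chromosome 12, where the Dlk1-Dio3 region lies, were called higher and 1 lower (miR-342-3p). On the X chromosome 1 of 45 was called higher and 3 lower, the 3 of the miR-322 cluster already given above. Over all tested miRNAs, 7.34% were called higher and 3.67% lower.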
